A study of Mus musculus with 15 samples.

Results

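The interferon-induced genes described here are a set of 45 mouse genes, chosen by their known role in the response to interferon, of which 36 could be tested among 8976 genes in mouse liver. The array samples were livers of male C57BL/6 mice aged 8 weeks, in 5 groups of 3 arrays, and T3 is liothyronine, the active thyroid hormone, given into the peritoneum at a daily dose of 20 µg per 100 g of body weight. Acute T3 livers were taken 6 h after 1 injection, and baseline A is their comparison. T3 withdrawal livers were taken 10 days after the last of 14 daily injections, chronic T3 livers 6 h after a course of the same 14 daily doses had ended, and baseline B is the comparison for both. The labels describe no injections in either baseline, so the effect of T3 and the effect of being injected cannot be told apart. All groups were the same sex, strain and age, and no genetic change was described in any of them. The labels do not say whether each array was a separate animal, so p-values here measure the spread between these samples.

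Interferons are secreted proteins that warn cells of infection. Type I interferons and interferon gamma bind receptors that switch on Janus kinases, which activate STAT proteins. The complex ISGF3, which contains Stat2 and Irf9, binds a DNA element called the ISRE, and STAT dimers that respond to interferon gamma bind the GAS element. The genes below these elements code for enzymes, sensors and membrane proteins that restrict viruses and intracellular bacteria, and for regulators that strengthen or end the response. In liver, hepatocytes and the resident macrophages, called Kupffer cells, both respond to interferon.

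The promoters shown are those of the 4 members with the largest increases after chronic T3 among those with an entry, so that the letters bound by ISGF3 can be seen where they occur. The sequences are RefSeq promoters on build GRCm38.p6, 300 bases each, 5′ to 3′ on the gene's strand, from 250 bases before the start to 50 after it. Gbp3 lies at chr3:142559794-142560093 on the + strand, Oas1g at chr5:120887564-120887863 on the - strand, Ifit2 at chr19:34550444-34550743 on the + strand and Oasl2 at chr5:114896684-114896983 on the + strand. Capitals mark matches, on either strand, to the core letters of the ISRE, which were searched as GAAA, then any 2 bases, then GAAA.
Gbp3: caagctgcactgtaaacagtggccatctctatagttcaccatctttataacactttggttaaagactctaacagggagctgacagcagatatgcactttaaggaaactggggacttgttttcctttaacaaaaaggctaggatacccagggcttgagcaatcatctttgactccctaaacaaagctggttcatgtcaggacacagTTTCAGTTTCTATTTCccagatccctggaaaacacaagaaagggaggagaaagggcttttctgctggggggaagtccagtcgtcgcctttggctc
Oas1g: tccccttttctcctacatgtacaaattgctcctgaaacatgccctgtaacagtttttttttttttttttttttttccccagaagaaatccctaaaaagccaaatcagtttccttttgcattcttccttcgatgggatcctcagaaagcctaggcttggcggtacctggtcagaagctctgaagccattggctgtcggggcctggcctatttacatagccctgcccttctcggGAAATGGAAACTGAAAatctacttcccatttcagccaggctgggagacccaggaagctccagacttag
Ifit2: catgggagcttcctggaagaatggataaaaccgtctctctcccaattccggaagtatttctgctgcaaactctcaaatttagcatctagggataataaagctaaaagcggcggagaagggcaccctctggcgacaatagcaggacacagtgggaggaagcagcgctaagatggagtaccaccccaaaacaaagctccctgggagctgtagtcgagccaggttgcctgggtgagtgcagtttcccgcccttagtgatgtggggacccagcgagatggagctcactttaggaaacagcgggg
Oasl2: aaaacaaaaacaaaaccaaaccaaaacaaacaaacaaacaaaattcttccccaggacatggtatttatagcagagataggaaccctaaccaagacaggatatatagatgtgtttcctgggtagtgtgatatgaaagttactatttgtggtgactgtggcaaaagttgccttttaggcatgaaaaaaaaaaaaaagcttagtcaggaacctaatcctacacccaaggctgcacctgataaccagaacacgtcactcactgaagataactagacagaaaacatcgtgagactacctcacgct
The Gbp3 and Oas1g promoters each held 2 overlapping matches close to the start, and the Ifit2 and Oasl2 windows held none. The most upstream listed start was taken, and Gbp3 and Ifit2 each had another, whose window held no ISRE core. Among the 32 members with a promoter entry, 19 (59.4%) held the ISRE core, against 1079 of 27025 genes (3.99%), with overlapping matches allowed. The GAS letters TTCNNNGAA occurred in 11 of the 32 members (34.4%), against 9.55% of all genes. The ISRE core was found in 5 of the 9 members with an entry that rose after chronic T3 (55.6%) and in 10 of the 17 tested members with an entry that did not pass the test (58.8%). AGGTCA, the core letters recognised by thyroid hormone receptors, occurred in 6 of the 32 members (18.8%), against 18.1% of all genes. A match describes letters in this window and is not a measured binding site. No entry was matched for Gbp4, Gbp6, Iigp1, Oas2, Ifi27, Ifi27l2a, Rtp4, Usp18, Dhx58, Zbp1, Mx1, Mx2 and Parp14.

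Expression was measured on Illumina bead arrays, and values are log2 signals after background correction and quantile normalization, with the brightest probe taken for each gene. A gene entered the tests if 3 or more of the 15 arrays gave it a detection p-value under 0.01, and a change was called at an adjusted p under 0.05 in limma with Benjamini-Hochberg adjustment over all 8976 genes. The mean bead signal per array lay between 435 and 697, and the 2 dimmest arrays were chronic T3 replicates 2 and 3, at 438 and 435. Of the 45 members, 31 were detected on all 15 arrays and 5 more passed on fewer (Irf8 on 14, Oas2 on 12, Ifit2 on 10, Rtp4 on 6 and Iigp1 on 4). Gbp4, Gbp6, Oas1a, Oas3, Ifit1, Xaf1, Ifih1 and Mx1 stayed below the filter, and Ifi44 was not analysed here. Oas1g and its near-identical relatives, and the Ifitm genes, are similar enough in sequence that a probe could also read a neighbour, and their values are uncertain to that extent. Because liver was measured in bulk, fewer cells of a type and less RNA per cell cannot be told apart.

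Chronic T3 livers had higher signal of 15 of the 36 tested interferon-induced genes than baseline B livers, and none was lower at the threshold, although with median scaling in place of quantile normalization Irf3 and Irgm1 were. Among all 8976 genes, 12.4% were called higher and 10.5% lower in the same comparison. The median log2 difference of the 36 members was 0.66, against 0.03 for all genes tested, and 32 of the 36 differences were above 0. The fitted difference was more than 2-fold upward in 13 members. In 19 members all chronic T3 arrays lay above all baseline B arrays, against 18.9% of all genes, and in none did all lie below, against 16.4%. The 15 that rose were Gbp3, Oas1g, Oas2, Oasl2, Ifit2, Ifit3, Ifi27, Ifi27l2a, Isg15, Usp18, Dhx58, Parp14, Irf8, Irf9 and Stat2. By role, 3 of 4 tested oligoadenylate synthetases rose, 2 of 2 IFIT genes, 2 of 2 genes of the ISG15 system, 2 of 4 in the Ifi27 group, 3 of 6 transcription factors, 1 of 2 sensors, 1 of 4 effectors, 1 of 8 GTPases and 0 of 4 IFITM and tetherin genes.

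**Figure D1:**
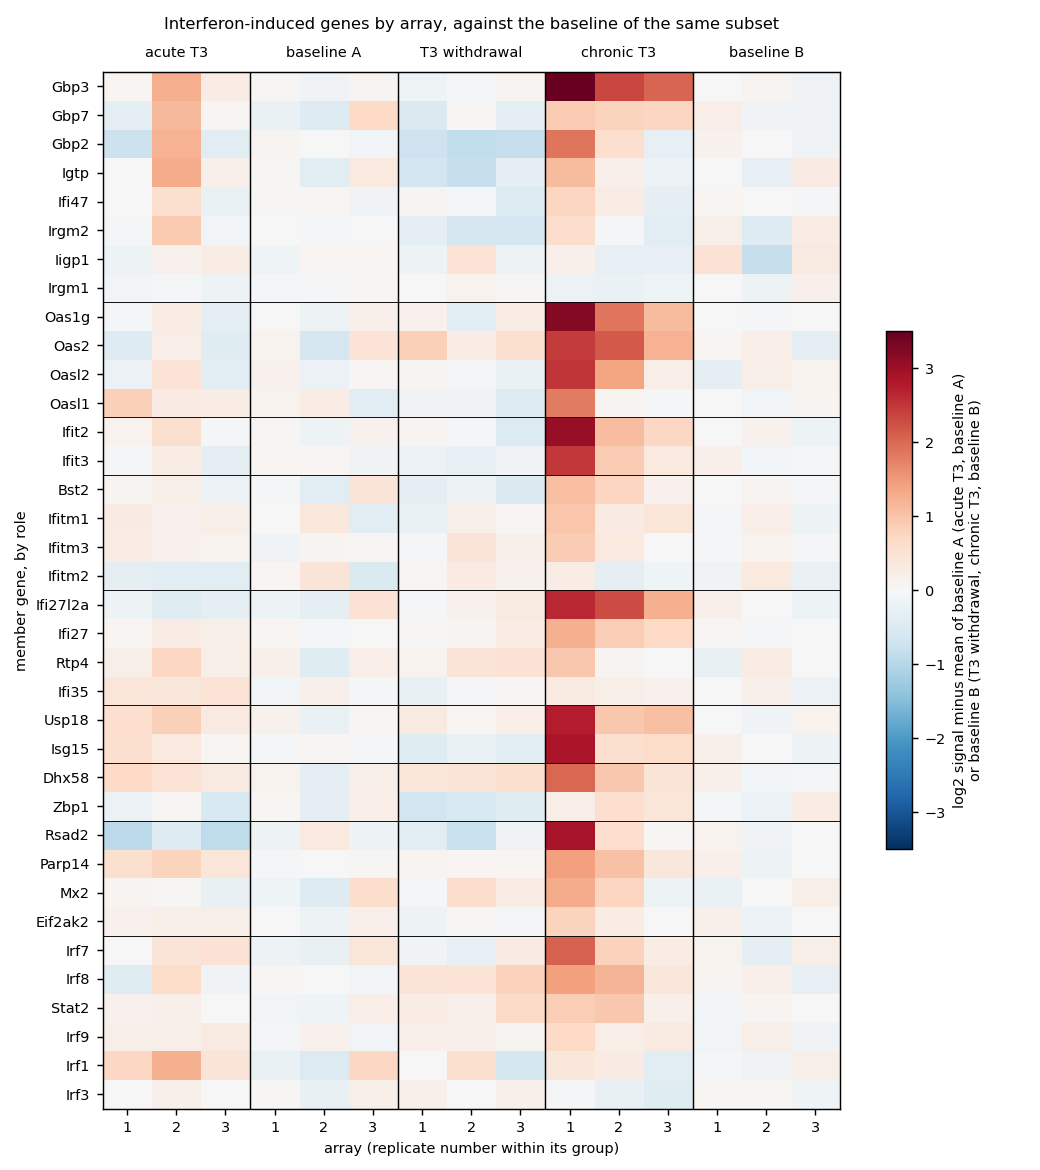
The heat map gives the log2 signal of each of the 36 tested members on each of the 15 arrays, minus the mean of its own baseline group (red higher, blue lower), with members in rows by role and arrays in columns by group. The chronic T3 columns hold the strongest red, most of all in replicate 1, and the acute T3 replicate 2 column shows red in the guanylate-binding and immunity-related GTPases.

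The oligoadenylate synthetases make short oligoadenylates that activate the RNA-degrading enzyme RNase L, and the OAS-like proteins are their relatives. Oas1g had log2 signals of 11.19, 9.84 and 9.09 on the chronic T3 arrays, against 7.99, 7.94 and 7.98 on the baseline B arrays. All chronic arrays lay above all baseline arrays, and replicate 1 was the highest. The difference was 2.07 ± 0.38 (moderated SE, n = 3 each), a 4.20-fold rise, with a limma adjusted p of 0.00225. Oas2 had 8.38, 8.09 and 7.14 on chronic T3 arrays, against 6.01, 6.17 and 5.63 on baseline B arrays. It was not well above background on any baseline B array, so its rise is given as at least 2.68-fold (limma adjusted p 0.00145), a bound that sets the mean of the chronic arrays against the lowest detected signals of the baseline arrays. Oasl2 had 9.99, 8.90 and 7.75 on chronic T3 arrays, against 7.16, 7.72 and 7.63 on baseline B arrays. Replicate 3 of chronic T3 lay just above the highest baseline array, and the rise of 1.37 ± 0.41 had a limma adjusted p of 0.0308. Oasl1 had 9.44, 7.71 and 7.55 on chronic T3 arrays, against 7.60, 7.53 and 7.71 on baseline B arrays, and its difference of 0.62 ± 0.38 did not pass the test (limma adjusted p 0.270). The Oasl2 call was lost without chronic T3 replicate 1 or 2 or without baseline B replicate 1 or 3, and without chronic replicate 1 its difference was 0.82. Of the 6 listed members 4 were tested, with a median difference of 1.66.

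IFIT proteins bind foreign RNA and block its translation. Ifit3 had log2 signals of 12.13, 10.55 and 10.01 on chronic T3 arrays, against 9.83, 9.57 and 9.59 on baseline B arrays. Replicate 1 stood well above the other two chronic arrays, and the lowest chronic array was above the highest baseline array. The rise was 1.24 ± 0.38 with a limma adjusted p of 0.0334. Another Ifit3 probe differed by 0.60 and did not pass the test (adjusted p over probes 0.288 in limma), and the mean of the probes was not called. Without chronic T3 replicate 1 the rise was 0.62, and the call was lost when any 1 baseline B array was left out. Ifit2 had 9.12, 7.15 and 6.80 on chronic T3 arrays, against 6.10, 6.22 and 5.90 on baseline B arrays, where no array detected it. Its rise is therefore at least 2.36-fold (limma adjusted p 0.0182), and the fitted difference without chronic replicate 1 was 0.90, against 1.62 with all arrays. Leaving out baseline B replicate 3 lost the Ifit2 call. Both Ifit members that passed the filter rose, and Ifit1 stayed below it.

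Isg15 is a small ubiquitin-like protein that is attached to other proteins during the interferon response, and Usp18 removes it and also dampens signalling by the type I interferon receptor. Isg15 had log2 signals of 11.54, 9.23 and 9.32 on chronic T3 arrays, against 8.86, 8.66 and 8.50 on baseline B arrays. All 3 chronic arrays lay above the baseline arrays, but replicates 2 and 3 were far below replicate 1. The rise of 1.36 ± 0.44 (limma adjusted p 0.0405) was 0.61 without chronic T3 replicate 1, and the call was lost without any 1 of the baseline B arrays. Usp18 had 12.35, 10.54 and 10.66 on chronic T3 arrays, against 9.60, 9.48 and 9.73 on baseline B arrays. It rose by 1.58 ± 0.35 (limma adjusted p 0.00682), and by 1.00 without chronic replicate 1. The other Usp18 probe had a difference of 0.64 and did not pass the test, and the mean of the Usp18 probes was not called.

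Ifi27 and Ifi27l2a code for small hydrophobic proteins of intracellular membranes. Ifi27l2a had log2 signals of 11.57, 11.20 and 10.16 on chronic T3 arrays, against 9.10, 8.93 and 8.74 on baseline B arrays. The groups did not overlap, and the lowest chronic array was about a log2 unit above the highest baseline array. The rise was 2.05 ± 0.30 (limma adjusted p 0.000487). Ifi27 had 14.17, 13.77 and 13.60 on chronic T3 arrays, against 12.95, 12.89 and 12.92 on baseline B arrays. Its rise was smaller, at 0.93 ± 0.13, with a limma adjusted p of 0.000450 and the smallest standard error among the members that rose. The RefSeq spans of Ifi27 and Ifi27l2a overlap, so their probes may not read fully separate transcripts. Ifi35, which binds other interferon-induced proteins, differed by 0.23 ± 0.13 and did not pass the test, nor did Rtp4, a receptor-transporting protein that no baseline B array detected.

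Gbp3, a guanylate-binding protein of the family that attacks vacuoles holding bacteria and parasites, had the largest rise of all members. Its log2 signals were 11.71, 10.59 and 10.31 on chronic T3 arrays, against 8.27, 8.36 and 8.14 on baseline B arrays. Every chronic array was more than 3-fold above every baseline array. The rise of 2.61 ± 0.33 was 6.11-fold (limma adjusted p 0.000168), and another Gbp3 probe also rose, by 2.48. Its neighbours on chromosome 3 did not pass. Gbp7 had 8.52, 8.40 and 8.36 on chronic T3 arrays, against 7.86, 7.49 and 7.50 on baseline B arrays, groups that did not overlap, and differed by 0.81 ± 0.34 (limma adjusted p 0.107). Gbp2 had 10.34, 9.05 and 8.17 on chronic T3 arrays, against 8.60, 8.45 and 8.35 on baseline B arrays, so that replicate 3 lay below all baseline arrays, and differed by 0.72 ± 0.49. The immunity-related GTPases, which guard against intracellular pathogens in mice, did not pass, with differences between -0.19 for Irgm1 and 0.36 for Igtp. Of 10 listed GTPases 8 were tested and their median difference was 0.29.

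The IFITM proteins hinder the entry of viruses at membranes, and Bst2, called tetherin, holds budding virus at the cell surface. Bst2 had log2 signals of 12.62, 12.32 and 11.72 on chronic T3 arrays, against 11.55, 11.65 and 11.48 on baseline B arrays. The groups did not overlap, and the difference of 0.66 ± 0.24 missed the threshold at a limma adjusted p of 0.0601. Ifitm1 differed by 0.55 ± 0.21, Ifitm3 by 0.42 ± 0.19 and Ifitm2 by -0.08 ± 0.22. None of the 4 passed the test, and 3 of them had an unadjusted p under 0.05.

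**Figure D2:**
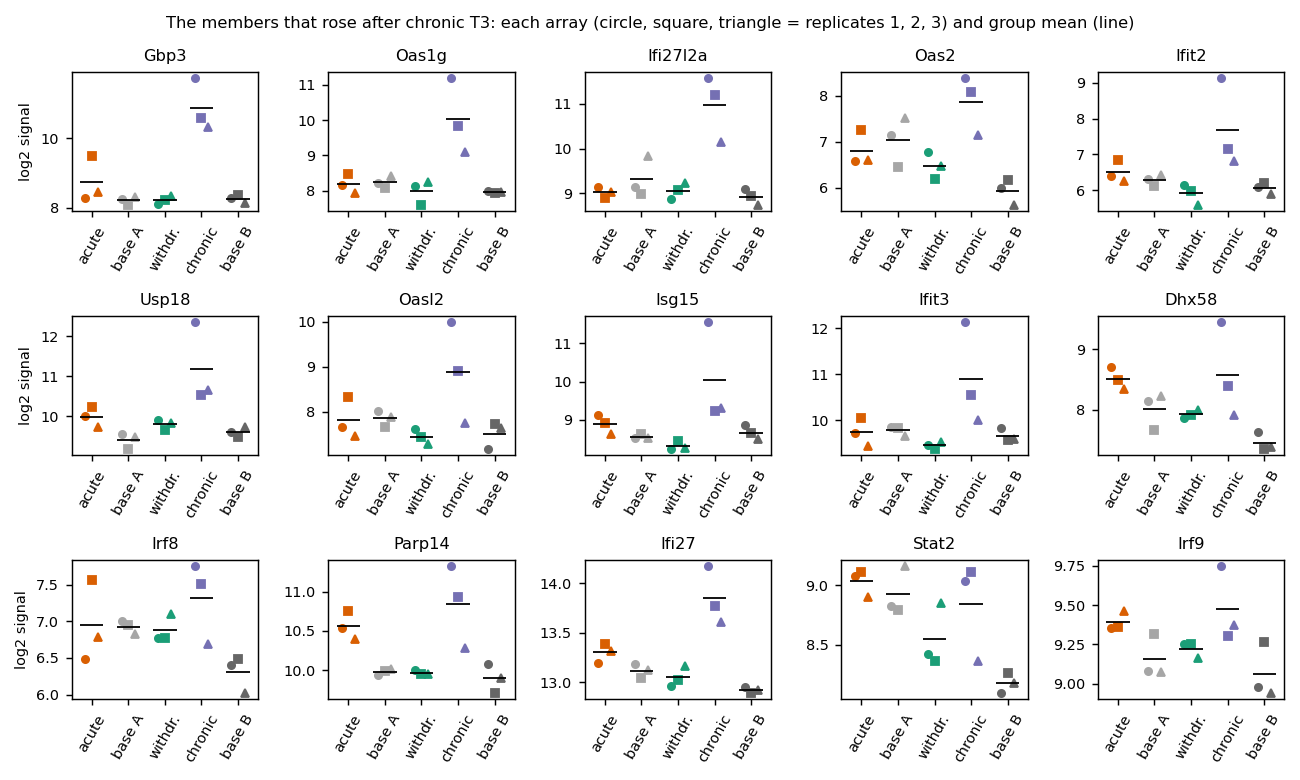
The 15 panels give the log2 signal of each member that rose after chronic T3, with a point for each array, shaped by replicate number, and a line at the mean of each group of 3. Chronic T3 stands above baseline B in each panel, replicate 1 (circle) is the highest chronic array in 14 of the 15, and the T3 withdrawal mean lies between -0.35 (Isg15) and 0.58 (Irf8) from that of baseline B.

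Among the nucleic acid sensors, Dhx58, a helicase related to the RNA sensor RIG-I, rose. It had log2 signals of 9.45, 8.39 and 7.91 on chronic T3 arrays, against 7.63, 7.35 and 7.38 on baseline B arrays. The groups did not overlap, and the rise of 1.13 ± 0.29 (limma adjusted p 0.0153) was 0.70 without chronic T3 replicate 1. Zbp1, a sensor of Z-form nucleic acid that can start cell death, had 7.82, 8.16 and 8.01 on chronic T3 arrays, against 7.55, 7.36 and 7.83 on baseline B arrays. Its brightest probe differed by 0.42 ± 0.18 and did not pass, whereas a dimmer Zbp1 probe differed by 1.48 with an adjusted p of 0.00063 over probes in limma. The dimmer probe had a mean log2 signal of 5.69 over all arrays, below the lowest detected signal of any array, 5.82. The difference of that probe therefore rests in part on signals at background. Whether its call is independent of the detection filter was not tested.

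Parp14, an ADP-ribosyltransferase, was the single antiviral effector to pass. Its log2 signals were 11.32, 10.93 and 10.28 on chronic T3 arrays, against 10.07, 9.71 and 9.90 on baseline B arrays. The groups did not overlap and the rise was 0.95 ± 0.20 (limma adjusted p 0.00546), while another probe differed by 0.61 and did not pass. Rsad2, the radical SAM enzyme viperin, had 11.79, 9.50 and 8.94 on chronic T3 arrays, against 9.04, 8.79 and 8.89 on baseline B arrays. Replicate 3 lay within the baseline range, and the difference of 1.17 ± 0.52 did not pass (limma adjusted p 0.124). Mx2, a dynamin-like GTPase, differed by 0.63 ± 0.34 and Eif2ak2, the RNA-activated kinase PKR, by 0.35 ± 0.17, and neither passed.

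Of the 6 transcription factors, Stat2, Irf9 and Irf8 rose. Stat2 had log2 signals of 9.04, 9.12 and 8.37 on chronic T3 arrays, against 8.09, 8.26 and 8.18 on baseline B arrays, and rose by 0.66 ± 0.19 (limma adjusted p 0.0272). Irf9, its ISGF3 partner, had 9.75, 9.31 and 9.38 on chronic T3 arrays, against 8.98, 9.27 and 8.94 on baseline B arrays, and rose by 0.42 ± 0.14 (limma adjusted p 0.0423). These were the smallest rises among the 15, and both Stat2 and Irf9 lost their calls when chronic T3 replicate 1 or baseline B replicate 1 or 3 was left out. Stat2 also lost it without chronic replicate 2, and Irf9 was 0.28 without chronic replicate 1 and 0.30, not called, on another probe. Irf8, a factor of macrophage and dendritic cell development, had 7.75, 7.50 and 6.69 on chronic T3 arrays, against 6.41, 6.49 and 6.02 on baseline B arrays. It rose by 1.01 ± 0.28 (limma adjusted p 0.0224), a call lost without chronic replicate 1 or 2 or baseline B replicate 3. Irf7, which drives type I interferon genes, had 9.51, 8.26 and 7.72 on chronic T3 arrays, against 7.57, 7.14 and 7.66 on baseline B arrays, and its difference of 1.04 ± 0.36 missed the threshold (limma adjusted p 0.0559). Irf1, a factor induced by interferon gamma, differed by 0.09 ± 0.35 and Irf3, which turns on interferon genes in infected cells, by -0.24 ± 0.14; neither passed. With median scaling, Irf3 and Irgm1 were called lower after chronic T3, at -0.47 and -0.51, Irf7 was called higher at 1.04 and Irf9, at 0.35, was not called. With quantile normalization, the other detected probes differed by 0.02 and -0.07 for Irf3 and by 0.09 for Irgm1, and none was called.

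The chronic T3 arrays differed from each other more for the interferon-induced genes than for genes in general. The median standard deviation of the 36 members was 0.53 within chronic T3, against 0.18 within baseline B, while over all genes it was 0.23 in chronic T3 and 0.19 in baseline B. Replicate 1 held the highest of the 3 chronic values in 33 of the 36 members (91.7%), against 35.6% of all genes. The median member lay 1.18, 0.59 and 0.22 above the baseline B mean on chronic replicates 1, 2 and 3, and all genes lay at 0.03, 0.05 and 0.00. Without chronic replicate 1, 11 members rose against 9.49% of all genes, without replicate 2, 12 against 8.21%, and without replicate 3, 21 against 13.1%. Without baseline B replicate 3, 8 members rose against 8.47% of all genes. Replicates 2 and 3, on which the members were lower, were also the arrays of lowest bead signal, and the part of signal in the difference was not tested. Leaving out both, which was added after the values were seen, gave 24 members higher on replicate 1 alone, against 9.31% of all genes, with that array assumed to vary like the other groups.

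**Figure D3:**
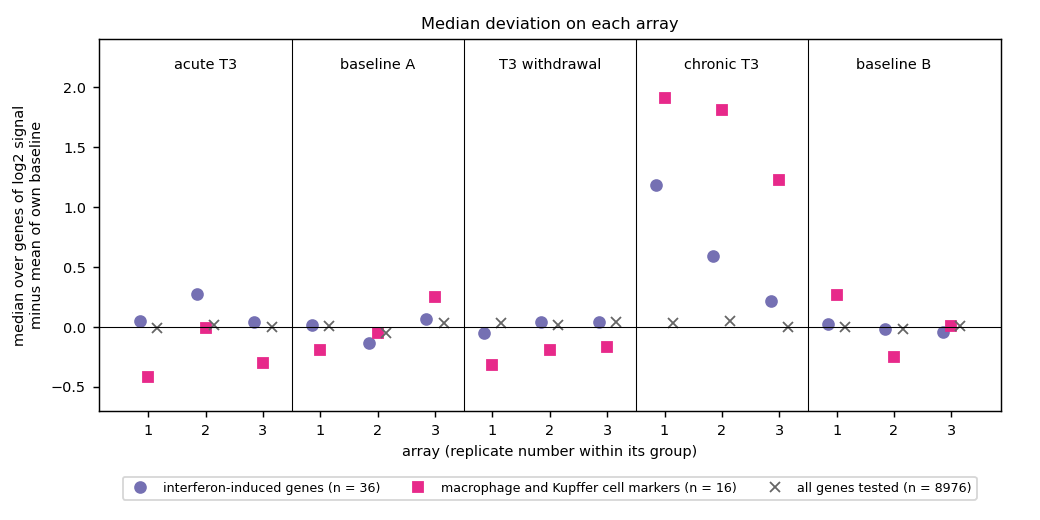
Each point is the median, over a gene list, of the log2 signal on 1 array minus the mean of its own baseline group, with the 36 interferon-induced genes as circles, 16 macrophage and Kupffer cell markers as squares and all 8976 genes as crosses. On the chronic T3 arrays the circles stand at 1.18, 0.59 and 0.22 and the squares at 1.91, 1.81 and 1.23, while the crosses stay near 0 on every array.

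Markers of macrophages and Kupffer cells were higher in the same livers. Of 23 listed marker symbols, which count Adgre1 also under its older name Emr1, 16 were tested. Of these, 15 rose after chronic T3, against the 12.4% of all genes called higher, with a median difference of 1.59. The 15 include Fcgr1, which was detected on 3 chronic T3 and 2 acute T3 arrays and on no other. Fcgr1 passed the filter only through the chronic T3 arrays, so its call is not independent of the filter. Folr2 rose by 2.26 ± 0.20, C1qb by 1.92 ± 0.23 and Lyz2, lysozyme, by 1.62 ± 0.20. The summed signal of the 16 markers was 21943 to 35877 in chronic T3 livers, against 7636 to 11676 in baseline B livers. Endothelial markers rose in 4 of 13 tested, and their summed signal was 13583 to 17372 in chronic T3 livers, against 12384 to 14897 in baseline B livers. None of the 9 tested hepatocyte markers rose. The probe of albumin (Alb) was lower, with a difference of -1.43 ± 0.15, and Fgb, also called lower, was not well above background in either group. Alb read 9.24 in baseline B, far below the hepatocyte markers Ttr, Apoa1 and Ahsg at 15.32, 15.58 and 15.53. How fully its probe reads albumin RNA is therefore uncertain. T cell and NK cell markers rose in 1 of 4 tested, B cell and plasma cell markers in 1 of 2 and dendritic cell markers in 1 of 2, while Cd3e, Cd4, Cd8a, Ncr1, Itgax, Xcr1 and Flt3 stayed below the filter. The T cell marker that rose, Cd8b1, averaged 11.05 in chronic T3, 10.12 in baseline B and 10.95 in baseline A. The others, Mzb1 of B and plasma cells and the dendritic Clec9a, were detected on no baseline B array. Clec9a averaged 6.53 in chronic T3 and 6.43 in baseline A, and Mzb1 6.30 and 5.53. Neither of the 2 tested neutrophil markers of 12 listed rose. The part of these cell types in the rise of interferon-induced genes was not tested. By array, the median macrophage marker lay 1.91, 1.81 and 1.23 above the baseline B mean on chronic replicates 1, 2 and 3, where the median interferon-induced gene lay at 1.18, 0.59 and 0.22.

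Genes that sense infection or carry the interferon signal were counted apart. Of 48 listed genes of interferon signalling 28 were tested, 7 rose after chronic T3, against 12.4% of all genes, and none fell, against 10.5%, with a median difference of 0.27. With median scaling Irf2, a factor that competes with Irf1 for its sites, was called lower, at -0.56. Among the 7 is Tlr7, an RNA-sensing receptor of immune cells. It had log2 signals of 8.27, 7.21 and 7.04 on chronic T3 arrays, against 5.40, 5.57 and 5.57 on baseline B arrays. No baseline B array detected Tlr7, and its signal was at least 2.08-fold higher after chronic T3. Of the 5 arrays that detected it, 3 were chronic T3, and it passed the filter only through them. Its call is therefore not independent of the filter. Ikbke, a kinase that activates interferon regulatory factors, rose by 1.07 ± 0.22, Ptpn6, the phosphatase SHP-1, by 0.88 ± 0.23 and Tyk2, a Janus kinase of the type I receptor, by 0.50 ± 0.15. Of the 28 genes, 5 were called lower in baseline B than in baseline A and 0 higher, against 5.98% and 2.73% of all genes. Tyk2 averaged 9.22 in chronic T3, 8.73 in baseline B and 9.49 in baseline A. Ptpn6 averaged 9.47, 8.58 and 9.43 in these groups, and Ikbke 8.56, 7.49 and 7.83. The T cell and macrophage chemokine Ccl5 rose by 1.68 ± 0.50 (limma adjusted p 0.0283). The receptor and signal genes Ifnar2, Ifngr1, Jak1, Jak2 and Stat3 did not pass, with differences of 0.13, 0.52, 0.09, -0.24 and 0.04. Socs3 had the lowest difference of the list, -1.88, with means of 7.55 in chronic T3 and 9.43 in baseline B, and was not called. All chronic T3 arrays lay above all baseline B arrays in 10 genes of the list, against 18.9% of all genes. They lay below in 3, against 16.4%. Cxcl9 and Cxcl10, chemokines induced by interferon gamma, differed by 0.27 ± 0.62 and -0.09 ± 0.52. For the interferons themselves, the probes of Ifnb1, Ifng, Ifna2, Ifna4 and Ifnl3 did not pass the filter, and Ifna1 differed by 0.32 ± 0.23 without passing the test.

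A further 68 symbols of interferon-induced genes outside the 45 were listed, with older and newer names of a gene both counted, and 30 genes were tested. Of these, 11 rose after chronic T3, against 12.4% of all genes, and none fell, against 10.5%, with a median difference of 0.59. Epsti1, an interferon-induced gene of epithelium and stroma, had 7.72, 7.45 and 6.91 on chronic T3 arrays, against 4.89, 5.38 and 5.73 on baseline B arrays, where no array detected it. Its rise was at least 1.88-fold (limma adjusted p 0.000154). Plac8 rose by 1.60 ± 0.24, Adar, an RNA-editing enzyme, by 1.10 ± 0.18 and Znfx1, an RNA helicase, by 0.84 ± 0.15. Of the 30 genes, 3 were called lower in baseline B than in baseline A and 0 higher, against 5.98% and 2.73% of all genes. Adar averaged 7.73 in chronic T3, 6.63 in baseline B and 7.39 in baseline A, and Epsti1 7.36, 5.33 and 6.15. The baseline A means of Plac8 and Znfx1, 9.01 and 8.97, lay below their baseline B means, 9.10 and 9.08. The 11 include Ifitm6, which was detected on chronic T3 arrays only and passed the filter through them, so that it had to differ.

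The acute comparison asks what a single injection did after 6 h. None of the 36 members was called in either direction in limma, where 2.12% of all genes were (1.47% higher and 0.646% lower), and 3 had an unadjusted p under 0.05. The median difference was 0.18, between -0.75 for Rsad2 and 0.81 for Irf1, and 26 of 36 were above 0. Gbp3 had log2 signals of 8.29, 9.47 and 8.46 on acute T3 arrays, against 8.25, 8.08 and 8.30 on baseline A arrays. Replicate 2 was far above the other arrays, and the difference of 0.53 ± 0.33 had a limma adjusted p of 0.511. Irf1 had 11.63, 12.16 and 11.34 on acute T3 arrays, against 10.66, 10.42 and 11.61 on baseline A arrays, groups that overlapped, with a difference of 0.81 ± 0.35 (limma adjusted p 0.285). Parp14 had 10.53, 10.75 and 10.39 on acute T3 arrays, against 9.93, 9.99 and 10.02 on baseline A arrays. All acute arrays lay above all baseline arrays, and the difference of 0.58 ± 0.20 still did not pass (limma adjusted p 0.190). Rsad2 had 8.77, 9.26 and 8.81 on acute T3 arrays, against 9.52, 10.05 and 9.53 on baseline A arrays, lower on every acute array but not called (limma adjusted p 0.564).

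None of the members called in the other comparisons was called after acute T3. Isg15 had 9.13, 8.92 and 8.63 on acute T3 arrays, against 8.54, 8.63 and 8.53 on baseline A arrays, and Usp18 had 10.00, 10.24 and 9.73 on acute T3 arrays, against 9.56, 9.18 and 9.47 on baseline A arrays. The acute Usp18 arrays lay above all baseline A arrays, the lowest acute Isg15 array met the highest baseline A array, and their differences of 0.33 ± 0.44 and 0.58 ± 0.35 were not called. Dhx58 had 8.71, 8.50 and 8.34 on acute T3 arrays, against 8.14, 7.67 and 8.23 on baseline A arrays, without overlap and with a difference of 0.50 ± 0.29. Irf9 had 9.36, 9.36 and 9.46 on acute T3 arrays, against 9.08, 9.31 and 9.07 on baseline A arrays, and differed by 0.24 ± 0.14. Groups without overlap occurred in 7 of the 36 members that were higher in acute T3, against 11.7% of all genes, and in 2 that were lower, against 10.2%.

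Other members overlapped between acute T3 and baseline A. Oasl2 had 7.65, 8.32 and 7.45 on acute T3 arrays, against 8.00, 7.65 and 7.88 on baseline A arrays. Ifit2 had 6.40, 6.86 and 6.26 on acute T3 arrays, against 6.32, 6.11 and 6.43 on baseline A arrays. Ifit3 had 9.73, 10.05 and 9.44 on acute T3 arrays, against 9.86, 9.84 and 9.66 on baseline A arrays. In these 3 antiviral genes acute replicate 2 was the highest acute array. Stat2 had 9.08, 9.12 and 8.91 on acute T3 arrays, against 8.83, 8.79 and 9.16 on baseline A arrays. Irf8 averaged 6.95 ± 0.56 on acute T3 arrays and 6.92 ± 0.09 on baseline A arrays (SD, n = 3 each). Bst2 had 11.64, 11.77 and 11.35 on acute T3 arrays, against 11.51, 11.15 and 12.01 on baseline A arrays. The differences of these 6 lay between -0.04 for Ifit3 and 0.22 for Ifit2. Zbp1 had 7.46, 7.71 and 7.15 on acute T3 arrays, against 7.75, 7.36 and 7.90 on baseline A arrays, and Gbp7 had 7.25, 8.69 and 7.63 on acute T3 arrays, against 7.32, 7.11 and 8.26 on baseline A arrays.

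Replicate 2 of acute T3 stood apart for the GTPases. It was the highest acute array in 24 of the 36 members (66.7%), against 39.7% of all genes, and in 7 of the 8 GTPases. The median GTPase lay 1.02 above baseline A on that array, and 0.06 and 0.01 below it on replicates 1 and 3. Igtp had 10.02, 11.32 and 10.20 on acute T3 arrays, against 10.07, 9.63 and 10.35 on baseline A arrays, and Irgm2 had 11.21, 12.15 and 11.16 on acute T3 arrays, against 11.25, 11.21 and 11.26 on baseline A arrays. On chronic T3 replicate 1 the median GTPase lay 0.82 above baseline B, while the other chronic arrays stood at 0.22 and -0.25.

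**Figure D4:**
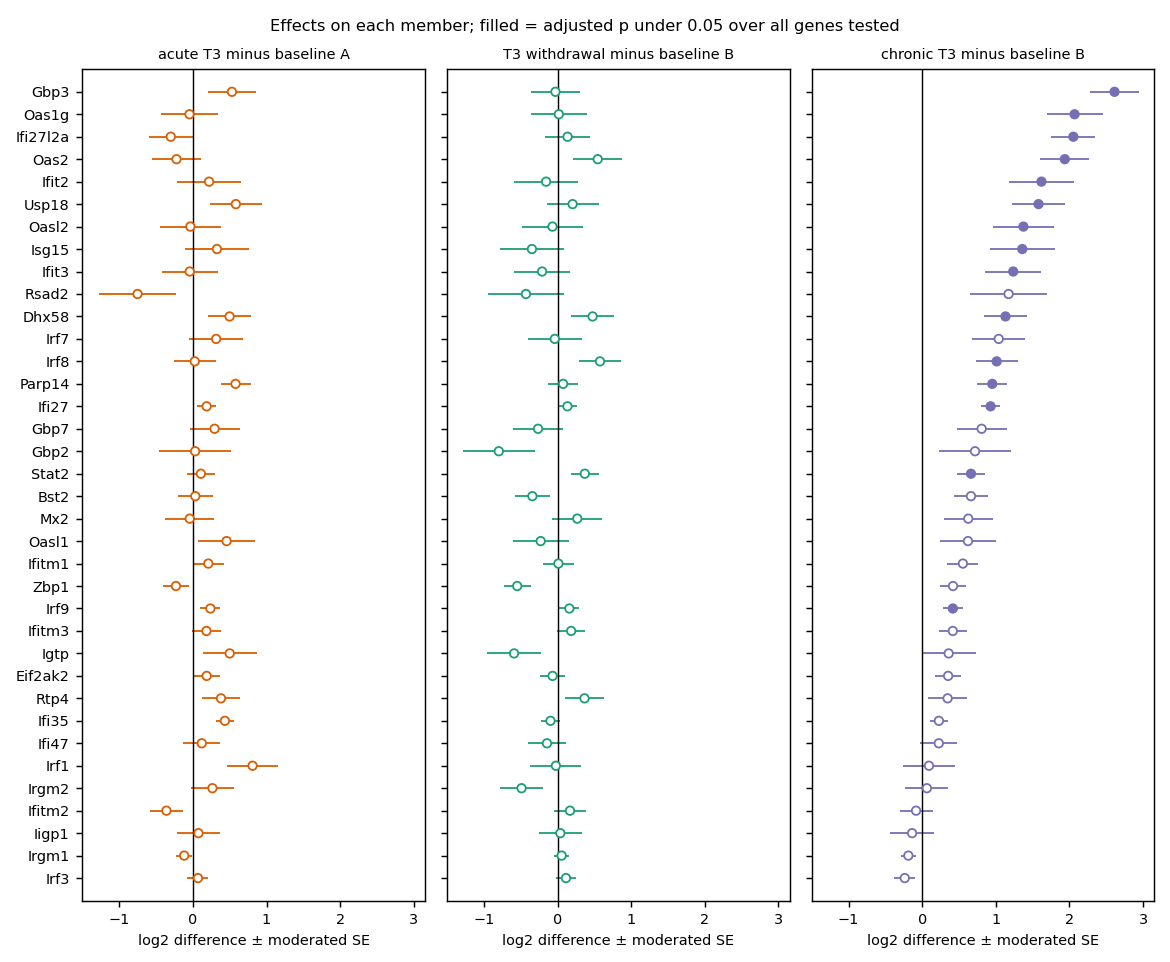
The 3 panels give the log2 difference of each of the 36 tested members with its moderated standard error, for acute T3 minus baseline A, T3 withdrawal minus baseline B and chronic T3 minus baseline B, with members ordered by the chronic difference. Filled points, at an adjusted p under 0.05, occur in the chronic panel only, where there are 15.

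T3 withdrawal livers held the interferon-induced genes near baseline B. None of the 36 members was called in limma, 0.0111% of all genes were, and 1 member, Zbp1, had an unadjusted p under 0.05, with a difference of -0.55 ± 0.18. The median difference was -0.01, with 18 of 36 members above 0 and a range of -0.80 for Gbp2 to 0.58 for Irf8. All withdrawal arrays lay above all baseline B arrays in 5 members, against 9.17% of all genes, and below them in 8, against 5.37%. Gbp3 had log2 signals of 8.10, 8.23 and 8.35 on T3 withdrawal arrays, against 8.27, 8.36 and 8.14 on baseline B arrays. Gbp3 differed there by -0.03 ± 0.33, Oas1g by 0.02 ± 0.38 and Ifi27l2a by 0.14 ± 0.30. Gbp2 had 7.74, 7.60 and 7.66 on T3 withdrawal arrays, against 8.60, 8.45 and 8.35 on baseline B arrays, lower on all arrays but not called, with a difference of -0.80 ± 0.49. Oas2 had 6.77, 6.19 and 6.48 on T3 withdrawal arrays, against 6.01, 6.17 and 5.63 on baseline B arrays, where no array detected it, and was at least 1.02-fold higher without being called (limma adjusted p 0.789).

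Set against chronic T3 livers, T3 withdrawal livers had lower signal of 15 members and higher signal of none, where 8.31% of all genes were called lower and 8.82% higher. This comparison shares the chronic T3 arrays with the chronic comparison, so they are not independent. The median difference was -0.82, against 0.01 for all genes. All withdrawal arrays lay below all chronic T3 arrays in 21 members, against 15.3% of all genes, and above them in 2, against 17.6%. Gbp3 fell by 2.64 ± 0.33, Oas1g by 2.05 ± 0.38 and Ifi27l2a by 1.92 ± 0.30. Oas1g had 8.12, 7.59 and 8.24 on T3 withdrawal arrays, against 11.19, 9.84 and 9.09 on chronic T3 arrays. Ifi27l2a had 8.88, 9.06 and 9.24 on T3 withdrawal arrays, against 11.57, 11.20 and 10.16 on chronic T3 arrays. The groups overlapped for neither gene. Ifi27 had 12.97, 13.02 and 13.17 on T3 withdrawal arrays, against 14.17, 13.77 and 13.60 on chronic T3 arrays, and fell by 0.79 ± 0.13.

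The other members called lower were Gbp7, Oas2, Oasl2, Ifit2, Ifit3, Bst2, Isg15, Usp18, Zbp1, Rsad2 and Parp14. Zbp1 had 6.91, 7.02 and 7.15 on T3 withdrawal arrays, against 7.82, 8.16 and 8.01 on chronic T3 arrays. It fell by 0.97 ± 0.18 (limma adjusted p 0.00300), with every withdrawal array below every chronic array. Bst2 had 11.22, 11.38 and 11.04 on T3 withdrawal arrays, against 12.62, 12.32 and 11.72 on chronic T3 arrays, and fell by 1.00 ± 0.24 (limma adjusted p 0.0112). Rsad2 had 8.51, 8.13 and 8.78 on T3 withdrawal arrays and fell by 1.60 ± 0.52, and Gbp7 had 7.13, 7.65 and 7.28 there and fell by 1.07 ± 0.34. These sat close to the threshold, at limma adjusted p-values of 0.0493 and 0.0451, and Gbp7 lost its call when any 1 of the 6 arrays compared was left out. Isg15 had 8.24, 8.44 and 8.28 on T3 withdrawal arrays and fell by 1.71 ± 0.44, while Ifit3 had 9.45, 9.37 and 9.53 and fell by 1.45 ± 0.38. Oasl2 had 7.61, 7.43 and 7.27 on T3 withdrawal arrays and fell by 1.44 ± 0.41. Ifit2 had 6.16, 5.99 and 5.59 there, detected on 1 of 3 arrays, and fell by 1.78 ± 0.44. Usp18 had 9.91, 9.67 and 9.84 and fell by 1.38 ± 0.35, and Parp14 had 10.00, 9.96 and 9.96 and fell by 0.88 ± 0.20. In Isg15, Ifit3, Oasl2, Ifit2, Usp18 and Parp14 the standard deviation was 0.02 to 0.29 among T3 withdrawal arrays, against 0.52 to 1.31 among chronic T3 arrays. Without chronic T3 replicate 1 the falls were 0.95 for Isg15, 0.83 for Ifit3, 0.89 for Oasl2, 1.06 for Ifit2, 0.79 for Usp18 and 0.75 for Rsad2. Calls were lost without 1 T3 withdrawal array for Oas2 and Usp18 (replicate 2), Ifit2 (replicate 3), Ifit3 (replicate 1 or 2), Isg15 (replicate 1 or 3), and Oasl2 and Rsad2 (any of them). Oasl2 also lost its call without chronic replicate 1 or 2, and Rsad2 without chronic replicate 1. Dhx58 had 7.87, 7.91 and 8.00 on T3 withdrawal arrays, Irf8 had 6.77, 6.77 and 7.10, Stat2 had 8.42, 8.37 and 8.85 and Irf9 had 9.25, 9.25 and 9.16. Their withdrawal means lay between the chronic T3 and baseline B means, and none was called against either group. The other Dhx58 probes fell by 1.04 and 1.08 against chronic T3, with adjusted p-values over probes of 0.0289 and 0.0469 in limma, so the Dhx58 probes disagree. Without T3 withdrawal replicate 2, 9 members were lower, against 5.55% of all genes. The 16 macrophage and Kupffer cell markers summed to 7874 to 8779 in T3 withdrawal livers, against 21943 to 35877 in chronic T3 livers.

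The chronic effect minus the acute effect, each against its own baseline, was above 0 at the threshold in 5 members, where 3.82% of all genes were, and below 0 in none, where 3.32% were. Ifi27l2a had the smallest adjusted p, with a difference of 2.35 ± 0.43 (limma adjusted p 0.00678). Its acute T3 arrays had 9.15, 8.91 and 9.02, against 9.15, 8.99 and 9.84 on baseline A arrays. Oas2 differed by 2.16 ± 0.47, a fitted value that rests on baseline B signals at background, Oas1g by 2.12 ± 0.54, Gbp3 by 2.08 ± 0.47 and Ifi27 by 0.74 ± 0.19. Oas1g had 8.16, 8.49 and 7.93 on acute T3 arrays, against 8.22, 8.07 and 8.42 on baseline A arrays. Oas2 had 6.58, 7.26 and 6.60 on acute T3 arrays, against 7.15, 6.45 and 7.51 on baseline A arrays. Ifi27 had 13.20, 13.39 and 13.32 on acute T3 arrays, against 13.18, 13.04 and 13.12 on baseline A arrays. Ifi27l2a kept this call under every alternative run. Gbp3 lost its call without acute T3 replicate 1 or 3, Oas2 without acute T3 replicate 1, Oas1g without each of 8 single arrays and Ifi27 without each of 7. The median difference over the 36 members was 0.59.

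The baselines were not identical. Of the 36 members 1, Stat2, was lower in baseline B than in baseline A, where 5.98% of all genes were called lower and 2.73% higher. All baseline B arrays lay below all baseline A arrays in 9 members, against 19% of all genes, and above them in 3, against 10.9%. Stat2 had 8.09, 8.26 and 8.18 on baseline B arrays, against 8.83, 8.79 and 9.16 on baseline A arrays, with a difference of -0.75 ± 0.19 (limma adjusted p 0.0333). The Stat2 rise of 0.66 after chronic T3 was taken against this lower baseline. Its chronic T3 mean of 8.84 lay below the baseline A mean of 8.93. Irf8 and Dhx58 differed by -0.62 ± 0.28 and -0.56 ± 0.29 between baseline B and baseline A, without overlap and without being called. Their chronic T3 means of 7.32 and 8.58 lay above the baseline A means of 6.92 and 8.02. Of the other members that rose after chronic T3, Gbp3, Isg15 and Usp18 differed by 0.05, 0.11 and 0.20 between the baselines. The rest had differences below 0. The labels do not pair the arrays of the 2 baselines. With the replicate number as a block, fitted over all 15 arrays, the Stat2 call was lost and no member was called. It was also lost without baseline B replicate 1, 2 or 3 or baseline A replicate 1 or 3. Oas2, not well above background on any baseline B array, was lower there than on the baseline A arrays given above and missed the threshold (limma adjusted p 0.0556). The acute and the chronic arrays were labelled as separate subsets of the experiment, so a direct difference in level between them cannot be told apart from the subset, and every effect above is given against the baseline of its own subset.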

How the data were processed

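Values came from 15 Illumina bead arrays of liver RNA, 1 array for each sample. The deposited table holds a mean bead intensity per probe without normalization between arrays, and a detection p-value per probe and array, per the file headers. The authors also deposited quantile-normalized intensity values on a linear scale, used as an alternative. Partek 6.6 is named in the submitters' processing notes, with no role given.

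In R 4.3.3 with limma 3.58.1, intensities were background-corrected from the detection p-values, quantile-normalized and log2-transformed with an offset of 16 (neqc). Of 45281 probes, 34885 had 1 gene symbol, 18 several and 10378 none, and 15361 passed the filter. The brightest probe of a gene was kept. One linear model with a mean for each group was fitted to all arrays, with moderated tests on 13.1 degrees of freedom. The precision of each value is limited by the 3 arrays in a group. Differences between effects were tested as contrasts in that model. An exact permutation test of 3 against 3 arrays cannot go below 0.1 and was not used.

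The members, the other gene lists and the tests were chosen with earlier results of these data known. All members were to be described, with full array values for those called in any comparison. From the pathway lists up to 5 genes that rose, and from the cell lists up to 3, were named by the smallest adjusted p after chronic T3. Predicted symbols were not named.

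Between baseline B and baseline A, arrays of the same replicate number deviated together, with correlations of 0.126, 0.250 and 0.195. In the other comparisons at least 1 pair was below 0.1, so the numbers were not treated as pairs. Alternatives changed the background correction, offset, normalization, detection filter, probe summary, variance moderation, array weights, arrays in the fit, threshold, replicate block and each array in turn. The fitting code was tested on simulated data.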

Additional observations from a re-analysis of the deposited data

Results flagged for a closer look

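The effect of chronic T3 on 5 interferon-induced genes differed from the effect of acute T3 by the test of the difference itself, in limma with adjustment over all genes, 3 arrays a group. The chronic minus acute log2 effect was 2.35 (SE 0.43, adjusted p 0.00678) for Ifi27l2a, 2.16 (SE 0.47, adjusted p 0.0169) for Oas2 and 2.12 (SE 0.54, adjusted p 0.0331) for Oas1g. It was 2.08 (SE 0.47, adjusted p 0.0193) for Gbp3 and 0.74 (SE 0.19, adjusted p 0.0334) for Ifi27. The 5 calls were not equally stable. Leaving out 1 array lost the call of Oas1g for 8 arrays, Ifi27 for 7, Gbp3 for 2 and Oas2 for 1, while Ifi27l2a kept it. Each effect was taken against its own baseline, and the difference of Oas2 between baseline B and baseline A missed the threshold (limma adjusted p 0.0556). Oas2 was not well above background on any baseline B array, so its 2.16 is a fitted value that rests on signals at background there.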

How the results depend on the processing

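No called difference of a member changed direction in any setting run. Counts here are over the 36 tested members and can include members not called with all arrays. The share of all genes called also moved between settings. After chronic T3, 8.21% of all genes were called higher without chronic replicate 2 and 13.1% without replicate 3. A changed count below is therefore not by itself a result about the members. After chronic T3, where 15 were called, the count was 6 when only the arrays compared were fitted (5 of them among the 15), 7 at an adjusted p under 0.01, 8 to 21 when 1 array was left out, and 24 without both dim chronic arrays, a setting chosen after seeing the data. Gbp3, Oas1g, Oas2, Ifi27 and Ifi27l2a kept that call in every setting that tested them. With median scaling 15 rose and 2 fell, and the share of called genes that were higher was 42.3%, against 54.1% with quantile normalization. That share was 42.3% against 53.5% for the chronic minus acute effect and 49.5% against 31.3% for baseline B minus baseline A. For T3 withdrawal minus chronic T3, where 15 were called, the count was 6 with only the arrays compared, 5 at 0.01, and 9 to 20 with 1 array left out. For the chronic minus acute effect, where 5 were called, the count was 3 with no detection filter, 3 with only the arrays compared, 1 at 0.01, 1 to 10 with 1 array left out, and 15 without both dim chronic arrays. Between baselines, 1 member was called, 2 when all arrays had to detect a gene, 2 with an intensity trend, 3 at 0.10, and 0 with no filter, array weights, only the arrays compared or 0.01. It was 0 to 3 with 1 array left out. The replicate block was fitted over all 15 arrays. With it, 0 members were called between baselines, where arrays of the same number deviated together. It gave 14 after chronic T3, 13 for T3 withdrawal minus chronic T3 and 4 for the chronic minus acute effect, where the numbers were not treated as pairs. Acute T3 and T3 withdrawal minus baseline B gave 0 calls in every setting run. A stricter threshold lowers counts by construction, and the cause of the other changes was not tested. With median scaling the members' median was -0.07 for T3 withdrawal minus baseline B, -0.67 for T3 withdrawal minus chronic T3 and -0.01 for baseline B minus baseline A. Members near background, such as Rtp4 and Iigp1, are limited by signal.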
